A study of Homo sapiens with 12 samples.

Results

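The genes described here are 49 that build the protein-folding, quality-control and import machinery of the endoplasmic reticulum (ER), measured on arrays in the myeloma line H929. They were selected by gene symbol, and for each gene the brightest probe set on average over the 12 arrays was used. Of the 49 genes, 45 had a probe set listed with a single gene symbol, and all 45 lay above the filter on dim probe sets, among 14725 such genes of 19775 in all. TXNDC5 and SYVN1 lay only on probe sets listed with several genes, and SEC61G and KDELR2 were not analysed here.

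H929 is a long-established human multiple myeloma line, and so derives from malignant plasma cells that make antibody. All 4 groups, with 3 arrays each, were this line. In the infected arm, the control cells carried a hairpin RNA directed at green fluorescent protein (shGFP) and the treated cells a hairpin directed at BCL9 (shBCL9), a co-activator of Wnt signalling; GFP-positive cells were sorted in both groups. In the transfected arm, the control cells were given cel-miR-67, a microRNA of the worm, and the treated cells human miR-30, for which the labels name members a to e but not whether as a mix. The labels give no vector, dose or time after treatment, and do not say if the 3 arrays of a group are separate cultures. The p-values therefore cover the array-to-array spread alone, which may be technical.

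Plasma cells push large amounts of antibody through the ER. New chains enter through the SEC61 channel, signal peptidase trims them, and HSPA5 and its partners hold them while disulfide isomerases and the lectins calnexin and calreticulin help them fold. Chains that do not fold are pulled back out through a complex built on SEL1L and SYVN1 and degraded by the proteasome, a route called ER-associated degradation (ERAD). The sensors ERN1 (IRE1), ATF6 and EIF2AK3 (PERK) act when unfolded protein builds up, which is known as the unfolded protein response. The ATF6 and ERN1 branches raise the output of many of these genes, and ERN1 does so by splicing the mRNA of the plasma cell factor XBP1.

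The hairpin's target, BCL9, was at 7.88, 7.90 and 7.88 in the shGFP arrays and 7.73, 7.61 and 7.85 in the shBCL9 arrays on the log2 scale, a difference of -0.15 ± 0.068 (SE) with a limma adjusted p of 0.0874. In the transfected arm it differed by 0.14 ± 0.068 (adjusted p = 0.269). All 10 plasma cell markers lay above the filter level (4.86 to 4.95) in every array. So did 4 of 5 B cell markers (not MS4A1), 3 of 6 T and NK cell markers (CD3D, CD3E and GNLY), 2 of 5 myeloid markers (CSF1R and ITGAM), 2 of 3 erythroid markers (HBB and ALAS2) and 5 of 7 stromal and epithelial markers. MS4A1 of B cells, CD2 and CD8A of T cells, CD14 and LYZ of myeloid cells, KLF1 of erythroid cells and EPCAM of epithelial cells lay below it in every array. Among those above it, group means of PAX5, CIITA, CD3D and CSF1R ran from 5.12 to 5.58, near the array medians of 5.46 to 5.53. BACH2 and HBB were brighter, with group means of 7.69 to 8.24 and 6.96 to 7.59. Summed linear intensities of the 5 B cell markers measured ran from 447 to 522 in shGFP, 378 to 416 in shBCL9, 375 to 389 in cel-miR-67 and 434 to 450.4 in miR-30 arrays. The sums of the 10 plasma cell markers ran from 45539.6 to 47320.4, 46445 to 47611, 33534 to 34499 and 33127.5 to 33507 in the same order. The 7 stromal and epithelial markers summed to 14540.1 to 14765, 13799 to 14257, 11472 to 11915 and 12091 to 12894. That sum mostly follows VIM, at a mean log2 level of 13.71 in shGFP arrays, with PECAM1 next at 9.93. In the B cell sum the brightest gene was BACH2 (8.24 in shGFP), which differed by -0.55 under shBCL9 and 0.32 under miR-30. CD22 differed by 0.25 and 0.06, so the sums do not measure the content of a cell type. The 6 T and NK cell markers summed to 189 to 234 over all 12 arrays, and the 5 myeloid ones to 147 to 176. The 3 erythroid ones summed to 239 to 255 in shGFP, 256 to 267 in shBCL9, 180.2 to 203 in cel-miR-67 and 171 to 202 in miR-30 arrays. Measures of RNA quality moved with the groups. The 3′ minus 5′ difference of ACTB was 1.30 ± 0.11 (SD, n = 3) in shGFP, 1.67 ± 0.081 in shBCL9, 2.16 ± 0.085 in cel-miR-67 and 2.07 ± 0.011 in miR-30 arrays. The 18S rRNA signal was 12.38 ± 0.072, 13.23 ± 0.021, 12.50 ± 0.054 and 12.64 ± 0.039 in the same order.

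Many genes of this machinery carry ER stress response elements in their promoters, and these are shown first because the ATF6 and XBP1 branches are known to act through them. The window searched ran from 250 bases before to 50 after each RefSeq transcription start (GRCh38.p14), and 44 of the 49 genes had an entry. The element ERSE, written here as CCAAT, any 9 bases and CCACG, on either strand, was found in 7 of the 44 genes, or 15.9%, against 0.0916% of all 27305 genes with a window. ERSE-II, written as ATTGG, any 1 base and CCACG, was found in 3 members, or 6.82%, against 0.0696% of all genes. The 10 genes with either element are chaperones, lectins, oxidoreductases and HERPUD1. The sites read as follows, 5′ to 3′ along the strand that holds the motif, with the fixed bases in capitals.
HSPA5: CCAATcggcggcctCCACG
HSP90B1, upstream site: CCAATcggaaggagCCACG
HSP90B1, downstream site: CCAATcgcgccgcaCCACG
CALR: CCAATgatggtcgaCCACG
CANX: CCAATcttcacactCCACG
PDIA6: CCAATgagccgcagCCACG
CRELD2: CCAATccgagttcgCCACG
ERO1B: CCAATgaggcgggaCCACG
HERPUD1: ATTGGgCCACG
SDF2L1: ATTGGtCCACG
HYOU1, both sites: ATTGGaCCACG
The 9 free bases differed from gene to gene, and the single free base of ERSE-II was g, t or a. Counted from the start, with the base before it as -1, the HSPA5 site lay at -66 to -48, the CRELD2 site at -80 to -62 and the ERO1B site at -243 to -225. CANX has several listed starts, so its single site falls at different distances from them. The shorter element UPRE, TGACG followed by TGG on either strand, occurred in 8 members (HYOU1, KDELR3, SEC62, SSR3, SSR4, TXNDC11, TXNDC5 and VCP), or 18.2% against 0.927% of all genes, and in HYOU1 it overlapped the upstream ERSE-II site. TGATG followed by CAAT, bound by C/EBP-ATF dimers, occurred in 0 of 44 members and 0.293% of all genes. A match describes these letters and is not evidence of binding. The elements were already known in genes of this kind, so the shares are given as description only.

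The 3 ERSE promoters whose genes fell under shBCL9 (values below) are given whole from 250 bases before the start to the base before it, in the direction of the gene, with the fixed bases of the ERSE in capitals. In CRELD2 and ERO1B the element lies on the opposite strand, so that its ends appear as CGTGG and ATTGG.
HSPA5, chr9:125241344-125241593, minus strand: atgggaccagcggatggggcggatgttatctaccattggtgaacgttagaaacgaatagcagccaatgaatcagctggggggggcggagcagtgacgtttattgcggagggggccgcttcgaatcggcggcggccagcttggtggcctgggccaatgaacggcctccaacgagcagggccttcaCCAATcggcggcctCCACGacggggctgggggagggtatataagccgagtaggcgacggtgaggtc
CRELD2, chr22:49918384-49918633, plus strand: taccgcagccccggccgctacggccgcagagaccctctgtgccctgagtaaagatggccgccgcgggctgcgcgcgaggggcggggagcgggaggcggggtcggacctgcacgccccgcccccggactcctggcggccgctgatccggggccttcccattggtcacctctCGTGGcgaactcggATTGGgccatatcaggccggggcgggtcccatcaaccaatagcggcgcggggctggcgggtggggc
ERO1B, chr1:236281959-236282208, minus strand: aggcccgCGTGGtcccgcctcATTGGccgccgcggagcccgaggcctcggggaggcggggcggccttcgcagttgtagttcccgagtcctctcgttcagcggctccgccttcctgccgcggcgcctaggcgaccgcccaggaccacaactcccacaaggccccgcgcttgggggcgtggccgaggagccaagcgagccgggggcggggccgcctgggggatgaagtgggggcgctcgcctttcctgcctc

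Under shBCL9 genes of this machinery were called in both directions, in shares close to those of all genes. The main chaperone HSPA5 and its co-chaperone DNAJB9 fell by 0.77 and 0.93 on the log2 scale, and the ERAD factors DERL3 and HERPUD1 and the oxidase ERO1B fell with them, while SDF2L1, PDIA3, SEL1L and TXNDC11 rose by 0.31 to 0.51. Of the 45 genes, 8 rose and 10 fell at an adjusted p under 0.05 (limma, Benjamini-Hochberg over all 14725 genes), against 18.7% of all genes higher and 22.9% lower. The 18 called genes are thus about the share called among all genes (41.5%), and the median change was -0.02 against 0.03 for all genes. In bulk arrays, a lower level per cell and fewer cells that express a gene cannot be told apart. In 15 genes all shBCL9 arrays lay above all shGFP arrays, and in 13 all lay below, against 24.8% and 27.2% of all genes. By role, 1 of 9 chaperones rose and 4 fell, 3 of 10 lectins and disulfide enzymes rose and 1 fell, 2 of 11 ERAD genes rose and 3 fell, and 1 of 11 translocon and signal peptidase genes rose and 2 fell.

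When the fit also took in each array's ACTB 3′ minus 5′ difference, 10 genes were called in this comparison, 2 higher and 8 lower, and with the 18S signal in its place 0 were. With the 18S signal the change of HSPA5 was -0.76 with an SE of 0.33 and that of DNAJB9 -1.09 with an SE of 0.42, sizes near those without it and errors several times wider, whereas CRELD2 and HERPUD1 came to -0.23 and -0.08, and MANF (0.20) and SEC61A1 (-0.09) turned sign. Neither measure overlapped between shGFP and shBCL9 arrays, so the treatment and these measures cannot be told apart by such a fit. The genes called both with and without the ACTB measure numbered 8, namely HSPA5, DNAJB9, CRELD2, ERO1B, HERPUD1 and DERL3, all lower, and SDF2L1 and PDIA3, both higher. Markers of the plasma cell state moved in the same comparison: 4 of 10 rose and 3 fell, or 70% called against 41.5% of all genes. SDC1 (0.88), CD38 (0.71), SLAMF7 (0.60) and CD27 (0.22) rose, and FCRL5 (-2.04), PRDM1 (-0.22) and TNFRSF17 (-0.18) fell. CD27 was dim, at means of 5.39 in shGFP and 5.61 in shBCL9 arrays (limma adjusted p = 0.0413). XBP1, IRF4 and MZB1 were not called. The part of these markers in the result was not tested.

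**Figure D1:**
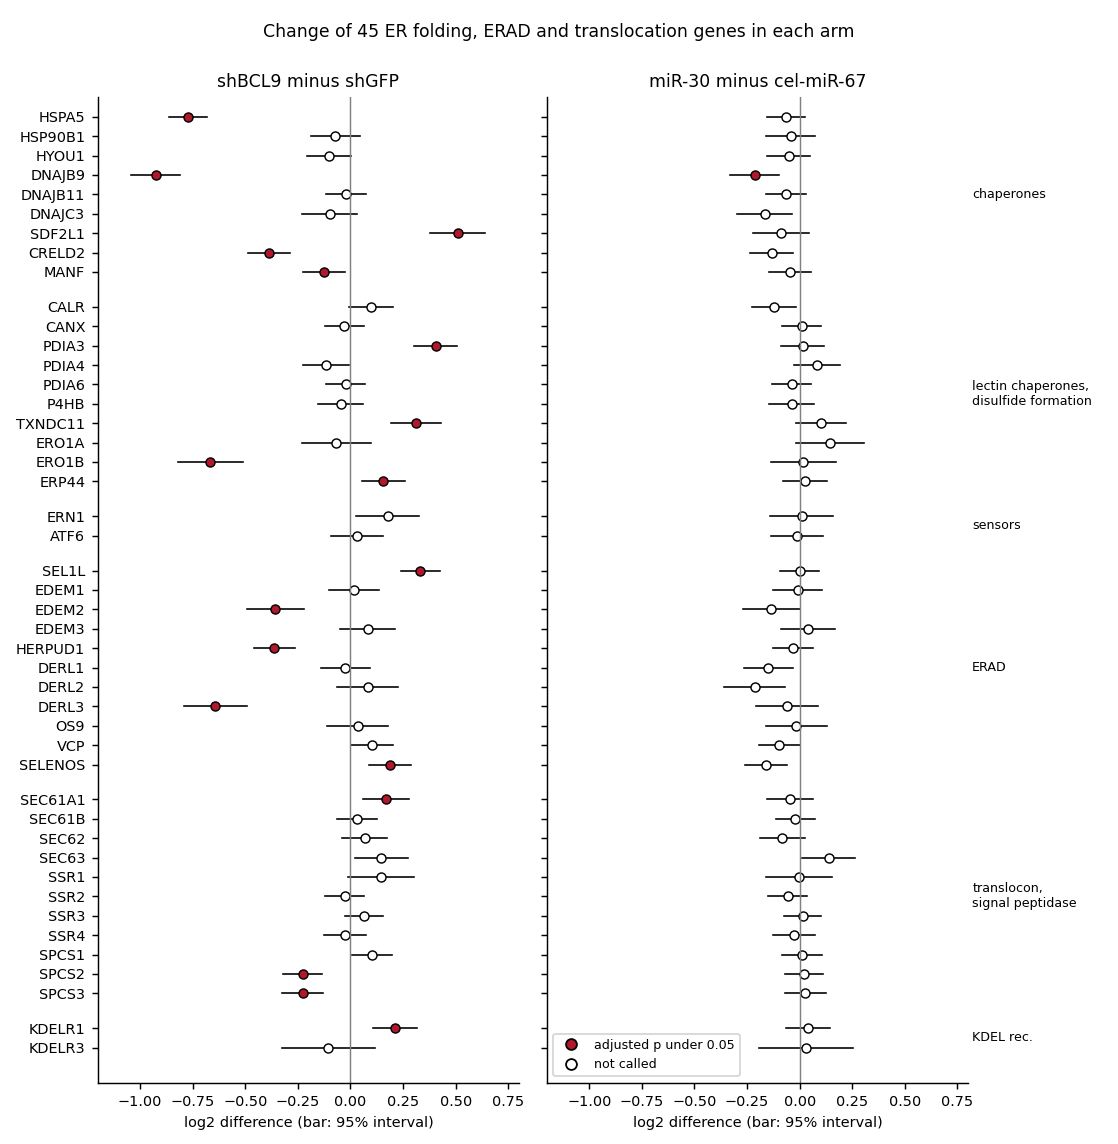
Change in log2 intensity of each of the 45 genes with its 95% interval from the linear model, for shBCL9 minus shGFP (left) and miR-30 minus cel-miR-67 (right), ordered by role; filled points have an adjusted p under 0.05. In the hairpin arm 18 points are filled, from DNAJB9 at -0.93 to SDF2L1 at 0.51, while in the transfected arm only DNAJB9, at -0.21, is filled.

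Among the chaperones, HSPA5 (BiP, the ER member of the HSP70 family) was at 12.99, 12.99 and 13.01 in the shGFP arrays and 12.21, 12.25 and 12.21 in the shBCL9 arrays. The groups lay far apart for their spread, and the change of -0.77 ± 0.042 (SE; adjusted p = 2.66e-08) is a fall of 41.5%. Its other, much dimmer probe set read -0.38. DNAJB9 (ERdj4), a J-domain partner that hands clients to HSPA5, was at 11.75, 11.83 and 11.81 in shGFP and 10.91, 10.88 and 10.82 in shBCL9 arrays. Its change of -0.93 ± 0.054 (adjusted p = 5e-08) was the largest fall of the 45 genes, and its other probe sets fell alike, at -0.97 and -0.86. CRELD2, a secreted ER stress protein, was at 11.15, 11.11 and 11.11 in shGFP and 10.73, 10.75 and 10.72 in shBCL9 arrays, with no overlap. It fell by 0.39 on the log2 scale (SE 0.046, adjusted p = 2.92e-05).

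SDF2L1, which works with the J-domain chaperones on HSPA5, went the other way. Its arrays read 10.65, 10.52 and 10.53 in shGFP and 11.10, 11.11 and 11.02 in shBCL9, a rise of 0.51 ± 0.061 (adjusted p = 2.88e-05) on its single probe set. MANF, a small secreted factor that binds HSPA5, was at 12.17, 12.12 and 12.13 against 12.02, 12.06 and 11.96. Its change of -0.13 (adjusted p = 0.0409) was lost in 13 of 24 alternatives, among them leaving out any shGFP array, shBCL9 replicate 1 or 3, cel-miR-67 replicate 2 or miR-30 replicate 2. The remaining chaperones were not called. HSP90B1 (GRP94) differed by -0.07 (adjusted p = 0.299), with its other probe set at -0.35, and was called lower with the mean of its probe sets. HYOU1, which exchanges the nucleotide of HSPA5, differed by -0.10 (adjusted p = 0.111). The J-domain proteins DNAJC3 (P58IPK) and DNAJB11 (ERdj3) differed by -0.10 and -0.02, and the other probe sets of DNAJC3 lay between -0.04 and 0.07.

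**Figure D2:**
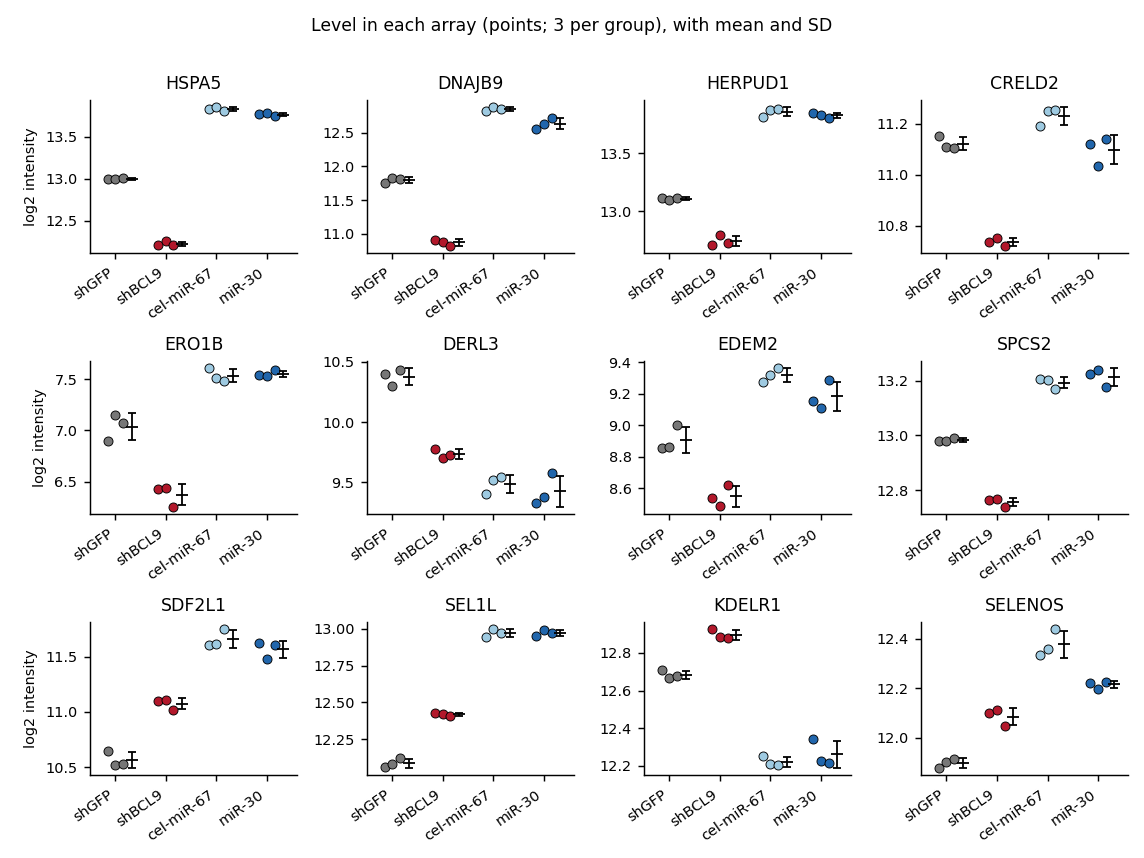
Log2 intensity of 12 of the genes in each of the 12 arrays, with the mean and SD (n = 3) beside each group; each panel has its own vertical range. The shBCL9 points lie below all shGFP points in the first 8 panels and above them in the last 4, and HSPA5 runs from 12.21 in shBCL9 to 13.85 in cel-miR-67 arrays.

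Among the lectins and disulfide enzymes, ERO1B, an oxidase that recharges the disulfide isomerases, was at 6.89, 7.15 and 7.07 in shGFP and 6.43, 6.44 and 6.25 in shBCL9 arrays. It fell by 0.67 on the log2 scale (SE 0.071, adjusted p = 1.11e-05), and its other probe set was lower too (-0.49). The paralogue ERO1A, which shares that role, differed by -0.07 (adjusted p = 0.497). TXNDC11, a thioredoxin-domain protein of the ER membrane, rose from 9.89, 9.85 and 9.82 to 10.16, 10.19 and 10.15, or by 0.31 ± 0.055 (adjusted p = 0.00067). PDIA3 (ERp57), the isomerase that works with calnexin and calreticulin, read 9.93, 9.91 and 9.84 in shGFP and 10.28, 10.33 and 10.29 in shBCL9 arrays. This rise of 0.40 ± 0.047 (adjusted p = 2.28e-05) was seen on the brightest probe set only, with the other probe sets at -0.20 and -0.03 and the mean of all its probe sets not called. ERP44, which retains oxidases in the early secretory pathway, read 10.76, 10.75 and 10.75 against 10.88, 10.95 and 10.89. Its rise of 0.16 (adjusted p = 0.0193) was likewise absent from its other probe sets, at -0.04 and -0.02, and was lost in 7 of 24 alternatives, including leaving out shGFP replicate 2 or shBCL9 replicate 2.

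The lectins did not pass the test in the main fit. Calreticulin (CALR) differed by 0.10 (adjusted p = 0.129), with its other probe sets at 0.36 and -0.04. It was called higher under 2 of 24 alternatives, the mean of probe sets and plain probe sets. Calnexin (CANX) differed by -0.03 (adjusted p = 0.615), with others from -0.16 to 0.08. The isomerases PDIA4, PDIA6 and P4HB differed by -0.12, -0.02 and -0.05 on the log2 scale, and each had another probe set of the opposite sign. Their 95% intervals together ran from -0.23 to 0.07.

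Of the stress sensors, neither was called. ERN1, the kinase and RNase that splices XBP1, read 10.00, 10.17 and 10.21 in shGFP and 10.26, 10.25 and 10.39 in shBCL9 arrays. The groups did not overlap, and the difference of 0.18 ± 0.069 (adjusted p = 0.0581) was called under 4 of 24 alternatives, including without shGFP replicate 3. Its other probe sets read lower, at -0.51 (SE 0.063) and -0.03 (SE 0.20). The one at -0.51 averaged 11.27 over the 12 arrays, near the 11.41 of the probe set used. That probe set averaged 10.13 in shGFP, 10.30 in shBCL9, 12.60 in cel-miR-67 and 12.61 in miR-30 arrays, so its rank rests on the transfected arm. The direction for ERN1 thus depended on the probe set. ATF6, which is cut in the Golgi to release a transcription factor, differed by 0.03 (adjusted p = 0.673) on its brightest probe set. Its other probe sets lay between -0.46 and -0.11, and the mean of its probe sets was called lower, at -0.20, with adjusted p from 0.00181 to 0.984 over its alternatives.

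In ERAD, DERL3, a derlin of the exit channel typical of secretory cells, was at 10.40, 10.30 and 10.43 in shGFP and 9.78, 9.70 and 9.73 in shBCL9 arrays. It fell by 0.64 on the log2 scale (SE 0.068, adjusted p = 1.08e-05), and its 3 probe sets read -0.64, -1.01 and -0.15. HERPUD1, a stress-induced adaptor of the ERAD complex, fell from 13.12, 13.10 and 13.12 to 12.72, 12.80 and 12.73, a change of -0.36 ± 0.045 (adjusted p = 3.79e-05), with its other probe set at -0.58. EDEM2, a mannosidase that marks misfolded glycoproteins, read 8.86, 8.86 and 9.001 against 8.54, 8.49 and 8.62, a change of -0.36 ± 0.063 (adjusted p = 0.000636). These 3 genes each showed a gap between the groups wider than the spread within either. SEL1L, the scaffold of the ERAD ubiquitin ligase, moved the opposite way, from 12.06, 12.08 and 12.12 to 12.43, 12.42 and 12.41. It rose by 0.33 ± 0.043 (adjusted p = 5.23e-05), and its 3 other probe sets read 0.15 to 0.30. SELENOS, a selenoprotein that links derlins to VCP, read 11.88, 11.90 and 11.91 against 12.10, 12.11 and 12.05, a rise of 0.19 ± 0.046 (adjusted p = 0.0057). The other ERAD genes were not called. EDEM1, EDEM3 and the lectin OS9 differed by 0.02, 0.08 and 0.03, DERL1 and DERL2 by -0.02 and 0.08, and VCP, the ATPase that extracts the clients, by 0.10 (adjusted p = 0.0878). DERL1, DERL2, OS9 and VCP each had another probe set of the opposite sign, at 0.37, -0.16, -0.11 and -0.13.

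In the import machinery, SPCS2 and SPCS3, accessory subunits of signal peptidase, each fell by 0.23 on the log2 scale. SPCS2 read 12.98, 12.98 and 12.99 in shGFP and 12.76, 12.77 and 12.74 in shBCL9 arrays (SE 0.042, adjusted p = 0.000914), with other probe sets at -0.07 and 0.09. SPCS3 read 11.94, 12.02 and 11.96 against 11.77, 11.76 and 11.71 (SE 0.044, adjusted p = 0.00134), with others at -0.21 and 0.11. Neither call held with the mean of the probe sets. SEC61A1, the pore of the channel, rose by 0.17 ± 0.051 (adjusted p = 0.0186), from 11.19, 11.18 and 11.17 to 11.35, 11.34 and 11.35, and its other probe set read 0.31. That call was lost in 5 of its alternatives, among them leaving out shGFP replicate 3 or shBCL9 replicate 1. The remaining translocon genes, namely SEC61B, SEC62, SEC63, the translocon-associated subunits SSR1 to SSR4, and SPCS1, differed by -0.03 to 0.15 on the brightest probe set and were not called. Dimmer probe sets of SEC62 read -0.33 (SE 0.077) and -0.27 (SE 0.075), and one of SEC63 read -0.43 (SE 0.097). Others of these genes reached 0.14 and 0.17. All 6 probe sets of SSR1 above the filter level were higher in shBCL9, at 0.13 to 0.49, with 0.14 on the brightest (adjusted p = 0.129). SSR1 was called higher under 2 of 24 alternatives, the mean of probe sets and plain probe sets.

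KDELR1, the receptor that returns chaperones bearing a KDEL tail from the Golgi, read 12.71, 12.67 and 12.68 in shGFP and 12.93, 12.88 and 12.88 in shBCL9 arrays. It rose by 0.21 ± 0.048 (adjusted p = 0.00382), with its other probe set at 0.57. KDELR3 differed by -0.11 (adjusted p = 0.432), with its other probe set at -0.72, and was called lower in 4 of 24 alternatives (the mean of probe sets, plain probe sets, the ACTB covariate, and without shGFP replicate 1). Over the comparison, 33 of the 45 genes had further probe sets above the filter level, and in 14 of them all had the sign of the brightest. Of the 12 called genes with further probe sets, 8 kept 1 sign in all of them.

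**Figure D3:**
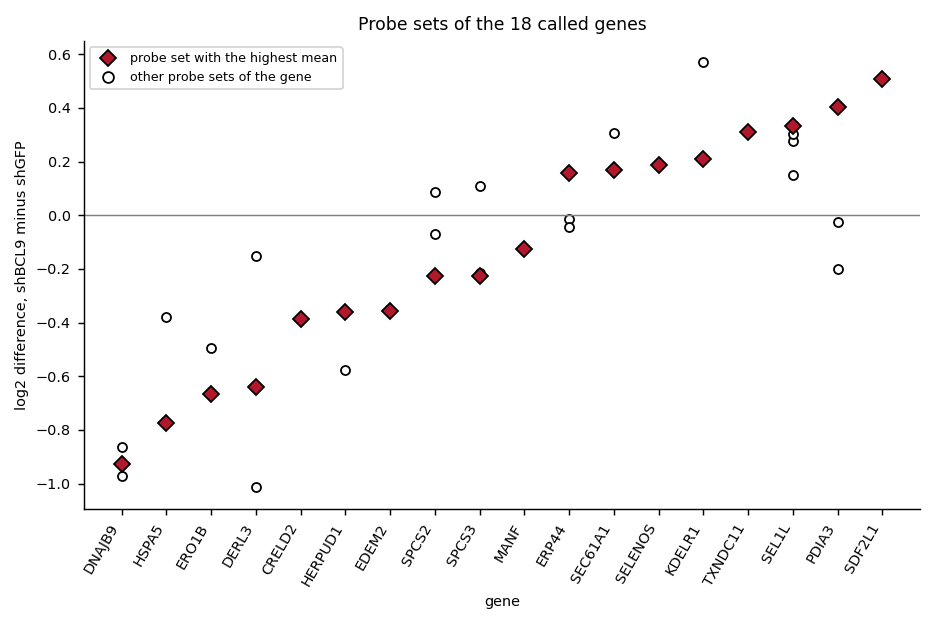
Log2 difference, shBCL9 minus shGFP, of every probe set above the filter level for the 18 called genes, ordered by the value of the brightest probe set (diamonds), with other probe sets as open circles. The circles lie on the same side of 0 as the diamond in 8 genes and include the opposite side in PDIA3, ERP44, SPCS2 and SPCS3; 6 genes have no other probe set.

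The promoter elements were set beside these calls. Of the 10 genes with an ERSE or ERSE-II, all measured, 4 fell (HSPA5, CRELD2, ERO1B and HERPUD1), 1 rose (SDF2L1) and 5 were not called (HSP90B1, CALR, CANX, PDIA6 and HYOU1). Of the 31 measured genes with a window and neither element, 5 fell, 6 rose and 20 were not called. Of the 7 with an ERSE 3 fell and 0 rose, and of the 3 with an ERSE-II 1 fell and 1 rose. Of the 7 measured genes with a UPRE 0 fell, 1 rose (TXNDC11) and 6 were not called. No test of the difference from the other genes was made.

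In the transfected arm, 1 of the 45 genes was called. The microRNAs given share the seed, bases 2 to 8, shown in capitals in the mature RefSeq sequences of 3 of them.
hsa-miR-30a-5p: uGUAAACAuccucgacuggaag
hsa-miR-30c-5p: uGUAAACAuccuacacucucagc
hsa-miR-30e-5p: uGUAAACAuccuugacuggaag
DNAJB9 was at 12.82, 12.88 and 12.85 in cel-miR-67 and 12.55, 12.63 and 12.72 in miR-30 arrays, without overlap. It fell by 0.21 on the log2 scale (SE 0.054, 95% interval -0.33 to -0.10, adjusted p = 0.0403), with its other probe sets at -0.27 and -0.25. This call was fragile. It was lost in 17 of 24 alternatives, including leaving out any cel-miR-67 array, miR-30 replicate 1 or 2, shGFP replicate 2 or 3, or shBCL9 replicate 1 or 2, and its adjusted p ranged from 0.00134 to 0.265.

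Of the other 44 genes limma called 0 in either direction on the brightest probe set, against 2.34% of all genes higher and 2.63% lower. Some other probe sets moved more, with ERN1 at 0.39 (SE 0.063), SSR1 at -0.23 (SE 0.060) and SEL1L at -0.27 (SE 0.070). Their brightest probe sets read 0.01, -0.004 and 0.001. SSR1 was called lower with plain probe sets (limma adjusted p = 0.0352). At an unadjusted p under 0.05, 1 of the 45 genes was higher and 7 were lower, against 7.67% and 13.3% of all genes. The median change was -0.03 against -0.02 for all genes. In 12 genes all miR-30 arrays lay below all cel-miR-67 arrays and in 1 all lay above, against 16.1% and 10.0% of all genes. The next smallest adjusted p-values were those of SELENOS, at 12.34, 12.36 and 12.44 against 12.22, 12.20 and 12.23 (-0.16, adjusted p = 0.0631), and DERL2, at 11.36, 11.42 and 11.47 against 11.09, 11.18 and 11.34 (-0.21, adjusted p = 0.0875). HSPA5 read 13.83, 13.85 and 13.80 against 13.76, 13.78 and 13.75, a difference of -0.06 with a 95% interval of -0.16 to 0.03 (adjusted p = 0.418). Of the 10 plasma cell markers 0 rose and 1 fell, CD38 at -0.29 (adjusted p = 0.0094), and its part in the result was not tested. ACTB and 18S measures differed less between these groups than between the hairpin groups, as given above.

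The effects of the treatments were compared with each other as a contrast over all 12 arrays, miR-30 minus shBCL9. Of the 45 genes 8 were higher and 8 lower in this difference of effects, against 14.6% and 11.7% of all genes. HSPA5, DNAJB9 and ERO1B led the higher ones, with differences of 0.71 ± 0.059 (adjusted p = 3.18e-06), 0.71 ± 0.076 (adjusted p = 2.65e-05) and 0.68 ± 0.10 (adjusted p = 0.000334). All 3 fell under shBCL9, and under miR-30 HSPA5 and ERO1B were not called on the brightest probe set. The difference was smaller on the other probe sets of HSPA5 (0.13, SE 0.11) and ERO1B (0.22, SE 0.12), which read -0.25 (SE 0.078) and -0.27 (SE 0.084) under miR-30. DERL3 (0.58), HERPUD1 (0.33), CRELD2, SPCS2 and SPCS3 (0.25 each) followed, and the further probe sets of SPCS2 and SPCS3 again differed in sign. SDF2L1 (-0.60, adjusted p = 0.000276), PDIA3 (-0.39, adjusted p = 0.000981) and SELENOS (-0.35, adjusted p = 0.00168) led the lower ones, followed by SEL1L (-0.33), DERL2 (-0.29, with its other probe set at 0.01), CALR (-0.22), SEC61A1 (-0.21) and VCP (-0.20). With the ACTB covariate 5 of these differences were called and with the 18S covariate 0. Some probe sets not used for the calls differed about as much, with ERN1 at 0.90 (SE 0.089), KDELR3 at 0.68 (SE 0.12) and ATF6 at 0.65 (SE 0.13). The brightest probe sets of these genes read -0.17, 0.14 and -0.04 and were not called. On the lower side, dimmer probe sets of SSR1 and KDELR1 read -0.64 and -0.55.

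The control groups also differed in level. In shGFP minus cel-miR-67, 30 of the 45 genes were lower and 7 higher, against 33.0% and 28.4% of all genes, and the median difference was -0.27 against 0.02 for all genes. Infection with sorting, transfection and other handling cannot be told apart here, and the ACTB and 18S values above differ between these groups too. With the ACTB covariate 6 genes were called, all lower. This comparison shares the shGFP arrays with the hairpin comparison, so the values are given side by side only.

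**Figure D4:**
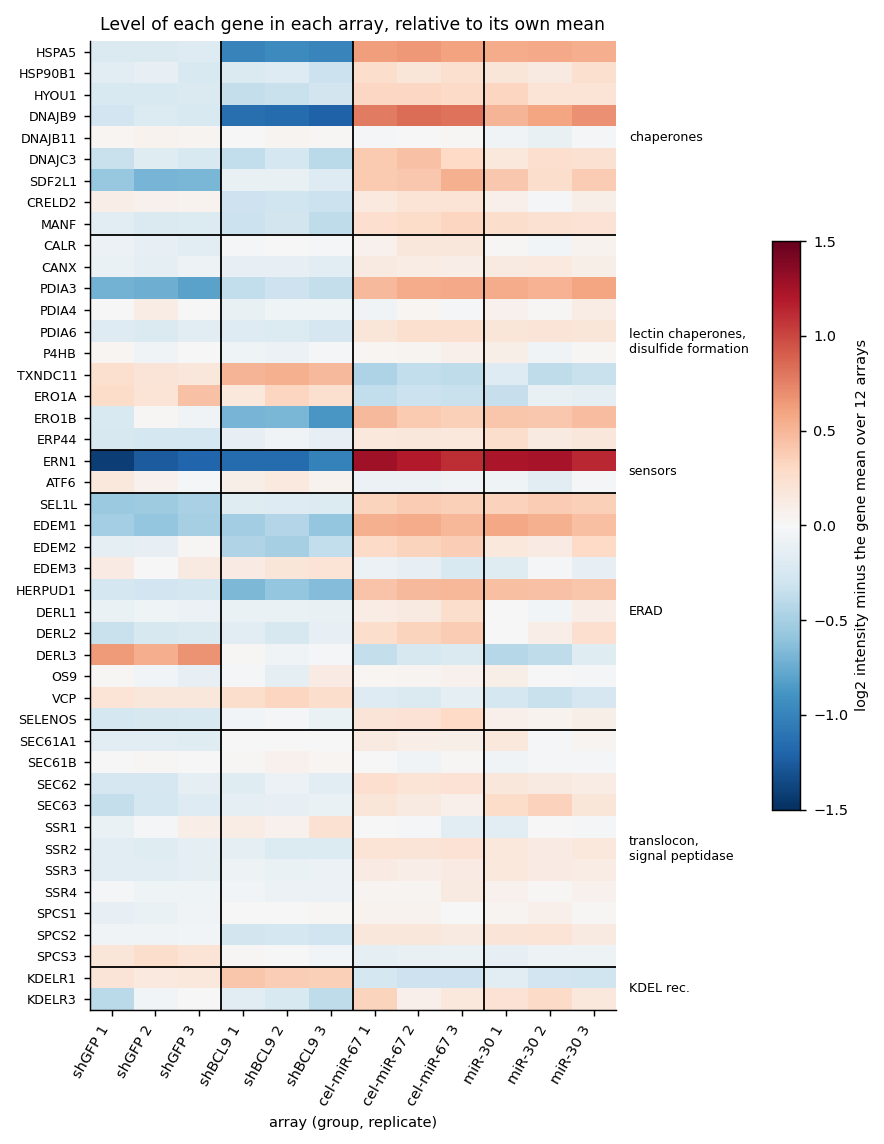
Log2 intensity of each of the 45 genes in each of the 12 arrays minus the mean of that gene over all arrays, by role (rows) and group (columns); red is above and blue below the mean. Most genes are blue in the 6 infected arrays and red in the 6 transfected ones, with ERN1 the most strongly coloured; among the chaperones HSPA5 and DNAJB9 are darkest blue in the shBCL9 arrays.

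Of the chaperones 7 of 9 were lower in shGFP and 0 higher. HSPA5 was lower by 0.83 on the log2 scale and DNAJB9 by 1.05, with all shGFP arrays below all cel-miR-67 arrays, although the other probe set of HSPA5 read -0.26. SDF2L1, at 10.65, 10.52 and 10.53 against 11.61, 11.62 and 11.75, differed by -1.09 ± 0.061 (adjusted p = 5.15e-09). HYOU1, MANF and HSP90B1 differed by -0.52, -0.48 and -0.40, although the other probe set of HSP90B1 read 0.02. The order of the group means was the same for HSPA5 and DNAJB9, lowest in shBCL9, then shGFP, then miR-30 and highest in cel-miR-67. The last pair of HSPA5 means, 13.76 and 13.83, did not differ past the test.

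ERN1 showed the largest gap, with 10.00, 10.17 and 10.21 in shGFP against 12.68, 12.60 and 12.52 in cel-miR-67 arrays, a difference of -2.47 ± 0.069 (adjusted p = 1.43e-11). Its other probe sets read -0.93 and -0.25, so the size of the gap depended on the probe set. PDIA3 differed by -1.28, while its other probe sets read -0.14 and 0.00. Of the ERAD genes 7 of 11 were lower and 3 higher. EDEM1, a lectin that delivers glycoproteins for disposal, differed by -1.06 on its single probe set, SEL1L by -0.88, with other probe sets from -0.81 to 0.36, and HERPUD1 by -0.74. The genes higher in shGFP were DERL3 (0.89), ERO1A (0.65), TXNDC11 (0.60), KDELR1 (0.46), VCP (0.36), SPCS3 (0.34, with others at -0.21 and -0.33) and EDEM3 (0.24). DERL3 read 10.40, 10.30 and 10.43 in shGFP and 9.40, 9.52 and 9.54 in cel-miR-67 arrays, opposite in direction to its fellow derlins DERL1 (-0.25) and DERL2 (-0.59).

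**Figure D5:**
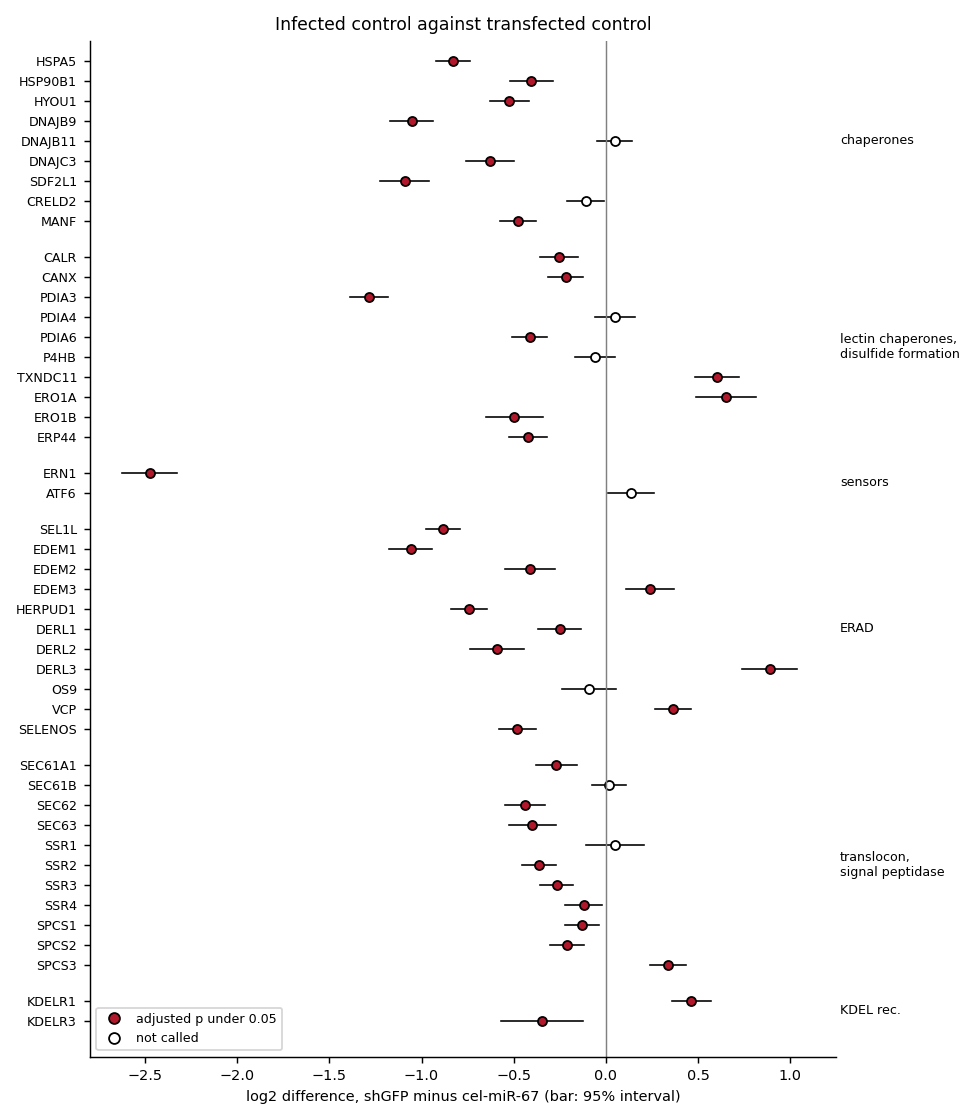
Log2 difference between the control groups, shGFP minus cel-miR-67, for each of the 45 genes with its 95% interval, ordered by role; filled points have an adjusted p under 0.05. Points run from ERN1 at -2.47 to DERL3 at 0.89, with 30 filled on the lower side and 7 on the higher side.

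The wider pathway was described with 113 further genes of ER stress signalling, folding, glycosylation, ERAD, targeting and export, of which 107 were tested. Under shBCL9, 23 rose and 23 fell, and under miR-30 0 rose and 1 fell. At an unadjusted p under 0.05 (limma), 1 of the 107 (0.935%) was higher and 19 (17.8%) were lower under miR-30, against 7.67% and 13.3% of all genes. Among the stress signalling genes 6 of 17 rose and 3 fell under shBCL9, or 52.9% called against 41.5% of all genes. DDIT3 (CHOP), the transcription factor that PERK signalling induces, read 7.82, 7.59 and 7.88 in shGFP and 8.44, 8.50 and 8.46 in shBCL9 arrays. It rose by 0.71 ± 0.070 (adjusted p = 5.76e-06), opposite to HSPA5, and it stood at 11.26 to 11.36 in cel-miR-67 arrays. EIF2AK3 itself rose by 0.54 (adjusted p = 5.74e-06), PPP1R15A (GADD34), which reverses PERK signalling, by 0.36 (adjusted p = 0.000751), and ATF4, its main transcription factor, by 0.19 (adjusted p = 0.00238). XBP1, at 12.75, 12.79 and 13.10 against 12.89, 12.84 and 13.18, overlapped between the groups and was not called (0.09, adjusted p = 0.545). These arrays do not tell spliced from unspliced XBP1 in the values used. WFS1, an ER membrane protein of calcium handling, fell under shBCL9 by 0.36 (adjusted p = 0.000116). It was also the only gene of these lists to fall under miR-30, by 0.24 on the log2 scale (adjusted p = 0.02), with its other probe set at -0.28. That call was lost without cel-miR-67 replicate 1 or 3 or miR-30 replicate 2 or 3, with only the 6 arrays of the arm, and with the 18S covariate.

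In the other lists shBCL9 calls also went both ways. Of 22 further folding factors 5 rose and 5 fell, with ERP29, an isomerase-like chaperone of secretory cells, up by 0.86 (adjusted p = 1.32e-07), TXNDC15 and FKBP2 up by 0.47 and 0.44, and TMX4 changed by -0.49. Of 15 glycosylation and glycan-trimming genes 2 rose and 5 fell. GANAB, the catalytic subunit of glucosidase II, rose from 8.90, 8.93 and 8.87 to 10.04, 10.04 and 10.07, or by 1.15 ± 0.050 (adjusted p = 4.35e-09), with its other probe set at 1.58. The oligosaccharyltransferase subunits DDOST and TUSC3 and the glucosidase MOGS changed by -0.53, -0.58 and -0.34. Of 15 further ERAD genes 2 rose and 5 fell, and the membrane protein FAM8A1 (-0.53), the ubiquitin-conjugating enzyme UBE2J1 (-0.34, with all 5 other probe sets lower too), the ubiquitin ligase RNF139 (-0.25) and the deubiquitinase YOD1 (-0.33) were the leading calls, all lower.

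Of 17 targeting and insertion genes 4 rose and 3 fell, led by TRAM2 (-0.52, other probe sets -0.34 and -0.44), SEC11C, a catalytic subunit of signal peptidase (-0.23), SRP68 of the signal recognition particle (0.21) and GET1 (-0.23). Of 17 genes of COPII coats and ER exit 3 rose and 2 fell, with the coat subunits SEC24A and SEC13 up by 0.45 and 0.22 and the cargo receptors TMED10 and SURF4 at -0.20 and -0.14, each with another probe set of the opposite sign. Of 4 antibody chain genes IGHG1 rose by 0.38 (adjusted p = 0.0307), on a dim probe set (mean 5.23), a rise absent from its other probe set above the filter level, and 3 were not called. The share called over all these genes, 43.0%, was again close to the 41.5% of all genes.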

How the data were processed

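RNA of H929 cells was hybridised to 3′ expression arrays of 54675 probe sets. The values are log2 intensities that the authors summarised per probe set with RMA (affy package) before they were deposited, per the submitters' processing notes, with versions not given in the sources used here; they were used as deposited. The number of arrays, 3 a group, sets the precision. Gene names came from the platform's annotation, which gives 41097 probe sets a single symbol and 1801 several, and does not list 11777. Symbols were checked against RefSeq names of GRCh38.p14, which changed 0. Genes were kept if their brightest probe set exceeded the 40th percentile of its array in at least 3 arrays.

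Group means were fitted in limma 3.58.1 (lmFit, eBayes; R 4.3.3) over all 12 arrays, and every adjusted p is limma's after Benjamini-Hochberg adjustment over 14725 genes. Genes were called below 0.05, and ± after a difference is its SE. The steps were tested on simulated data. The genes, lists and alternatives were chosen with earlier results of these data known. Values in every array are given for HSPA5 and for called genes with groups that do not overlap (up to 8 each way under shBCL9), for the 3 largest differences of effects each way, and for some others chosen after their values were seen. Of each further list up to 4 called genes are named, by adjusted p, plus XBP1, DDIT3 and ATF4. Whether the replicate numbers pair the arrays was checked and not settled, and the main fit treated the arrays as unpaired. Carboxy-terminal retention signals were not analysed here. Promoters were searched and figures drawn in Python 3.11.15 with matplotlib 3.10.9.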

Additional observations from a re-analysis of the deposited data

How the results depend on the processing

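Called counts were recomputed with other choices, and below are those that moved by over 1.5 times; the cause was not tested unless given. With the ACTB difference as a covariate the counts became 10 of 45 genes (from 18) under shBCL9, 0 (from 1) under miR-30, 5 (from 16) in the difference of effects, 6 (from 37) between the controls, and 14 (from 46) and 2 (from 1) of the 107 pathway genes under shBCL9 and miR-30. With the 18S signal as a covariate these counts were 0 for all but the controls. At an adjusted p under 0.01 they were 0 under miR-30, 10 in the difference, and 29 and 0 for the pathway genes; a change of at least 1.5-fold left 4, 0, 4 and 13, and 3 and 0. The miR-30 counts, 1 of the 45 genes and 1 pathway gene, became 0 and 1 with no filter, 2 and 4 with the 60th percentile, 2 and 2 with the mean of probe sets, 0 and 2 with quantile normalization, 1 and 2 with median centring, 0 and 0 with 6 arrays only, 3 and 4 with array weights, and 5 and 12 with trend and robust estimation. The difference of effects was not run with 6 arrays. Leaving out each array in turn gave 16 to 19, 0 to 2, 12 to 17 and 35 to 38 genes in the 4 comparisons, and 36 to 48 and 0 to 2 pathway genes.

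Whether replicate numbers pair the arrays was not settled. Deviations of arrays with the same number correlated at 0.05, 0.10 and 0.07 in the infected arm and 0.12, 0.091 and 0.23 in the transfected arm. Those with different numbers correlated at -0.15 to 0.065 and -0.24 to 0.13. Not every array correlated best with its own number. With the replicate block 17, 0, 17 and 37 genes were called, and 47 and 2 pathway genes. Directions turned for MANF and SEC61A1 with the 18S covariate (0.20 and -0.095), for ERP44 with plain probe sets (-0.015) and for ATF6 with the mean of its probe sets (-0.20). Of 19 called changes 3 turned sign under some alternative, as did 38 of 71 that were not called. Under shBCL9 some genes not called in the main fit gained a call. Besides those described above, these were HYOU1, ERO1A and VCP in 1 alternative each, DNAJC3 and PDIA4 in 2 each, SPCS1 in 3 and SEC63 in 5.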
